A study of Mus musculus with 12 samples.

Results

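Atf4 and 9 genes of the amino acid stress response that it is known to govern, Atf5, Ddit3, Trib3, Asns, Chac1, Psat1, Phgdh, Slc7a11 and Mthfd2, were followed in cultured mouse oligodendrocytes (OLs) treated to silence Egr2. They were taken by symbol from the counts table, where they are 10 of 56860 named genes, and all 10 had enough reads to be tested. The table holds RNA-seq read counts of 12 libraries, 6 from OLs that received an interference agent against Egr2 (siEgr2) and 6 from OLs that received a scrambled control (siNC). The sources call the agent both an siRNA and a plasmid, and its form is not settled here. In both groups O4+ cells were isolated from the cortex of newborn C57BL/6J mice (the labels name the medial prefrontal cortex), differentiated to OLs in culture and harvested 48 h after treatment. The comparison of the groups asks which transcripts differ after a treatment aimed at Egr2, a zinc finger transcription factor of myelinating cells. Nothing in the descriptions says that the libraries of a group come from separate cultures or animals, so the p-values measure the spread between libraries, which may be technical.

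ATF4 is a basic leucine zipper factor whose mRNA is translated better when kinases that sense amino acid shortage, unfolded proteins, heme shortage or viral RNA phosphorylate the initiation factor eIF2. It then binds, with C/EBP partners, to short composite sites called C/EBP-ATF response elements, and raises genes for amino acid synthesis, amino acid import, tRNA charging and feedback on the stress itself. Because much of this control is on translation, the level of the Atf4 mRNA need not follow the amount of ATF4 protein, which was not measured here. In OLs the same pathway is known from disorders of myelin in which eIF2 signaling is disturbed.

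The siEgr2 libraries were shallower than the siNC libraries. They held 8034251 to 16683677 counts against 28682946 to 39383014, with no overlap (two-sided exact permutation test over 924 assignments, p = 0.002165). The 18S ribosomal RNA gene Rn18s-rs5 took 10.5 to 16.5% of their counts against 0.142 to 1.05% (exact permutation p = 0.002165). The part of depth and of ribosomal RNA in the results below was not tested beyond the values given beside them, and depth, ribosomal share and treatment cannot be told apart by design. Egr2 itself had 3.89, 5.19 and 7.06 CPM (counts scaled to a common library size by the trimmed mean of M values, TMM) at the lowest, median and highest siNC library and 2.22, 3.93 and 4.86 in siEgr2. Its groups overlapped and its log2 fold change of -0.51 (SE 0.21) did not pass edgeR's quasi-likelihood test (adjusted p = 0.0981), at 30 to 65 reads in a siEgr2 library, so a lower Egr2 mRNA is not established in these libraries. Thinned to the smallest total, its change was -0.23 (adjusted p = 0.657). The mature OL marker Mbp was abundant, with a median of 1834 CPM in siNC, and so was the astrocyte marker Gfap with a median of 4751 CPM, so astrocyte transcripts were present beside those of OLs. In such bulk libraries, fewer cells of a type and less RNA per cell cannot be told apart.

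Across the 10 genes, none was called higher and only Slc7a11, the cystine importer, was called lower, where a call combines a threshold of 0.05 on the adjusted p with one of 0.5 on the size of the log2 fold change. DESeq2 and limma-voom called none of them higher either, and 4 of the 10 were lower at an unadjusted p under 0.05, where 16.9% of all tested genes were lower and 15.1% higher at that threshold. Of the 16600 genes tested, 2.63% were called higher and 5.08% lower, so that 65.9% of calls were lower, or 88.0% when libraries were scaled by their size only, which shifts the median gene to -0.18. Atf5, Phgdh and Slc7a11 passed the adjusted p and were lower, 3 of 10, where 11.3% of all tested genes were lower by adjusted p alone. In the same 3 genes every siEgr2 library lay below every siNC library, as for 7.00% of all tested genes. The fitted change was below 0 for all 10 genes, with a median log2 fold change of -0.26, while over all tested genes the median was 0.0046 and 49.1% were below 0. The enzymes Asns, Psat1 and Mthfd2 stood nearest to 0.

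**Figure D1:**
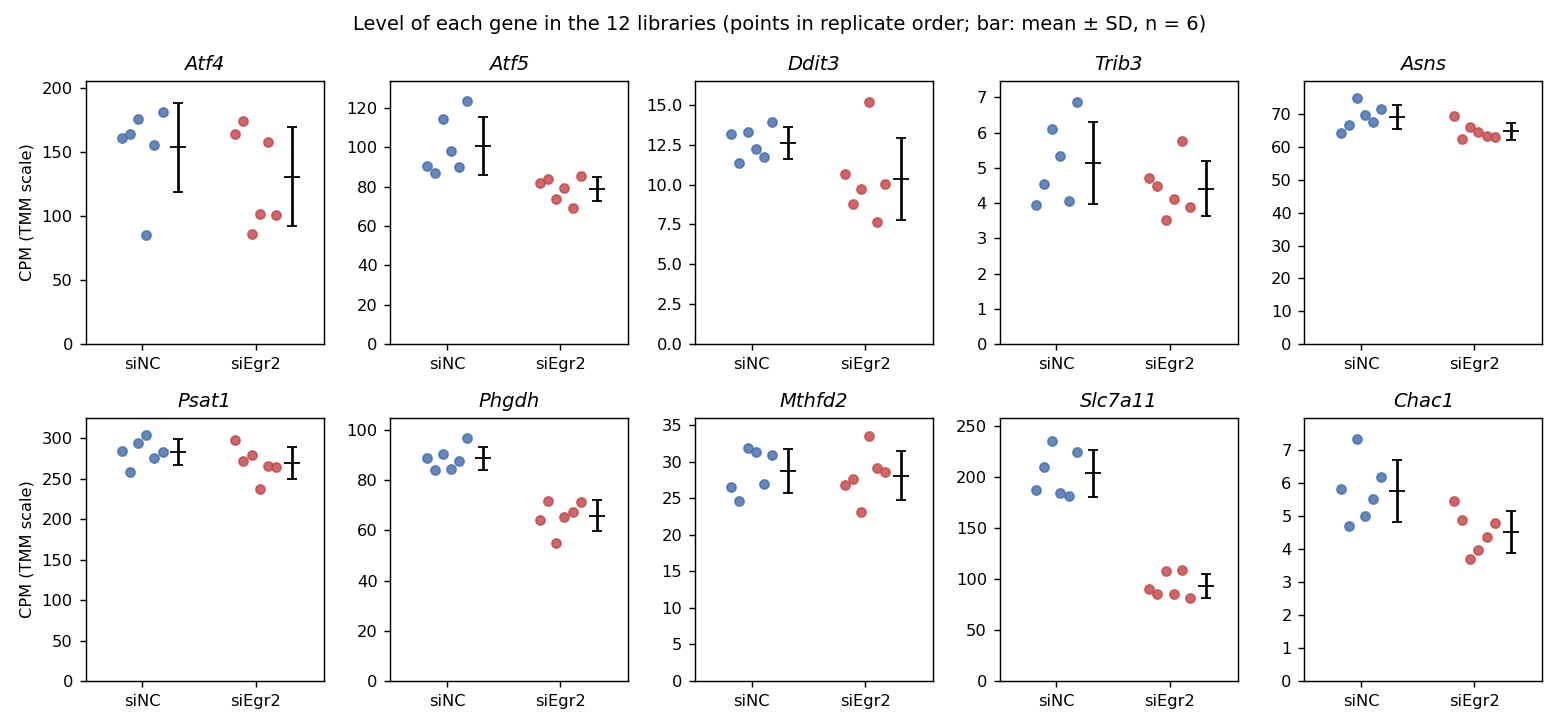
Level of each of the 10 genes in the 12 libraries, in CPM on the TMM scale (vertical axis, linear from 0), with 1 point per library in replicate order and the mean ± SD of 6 libraries as a bar. The groups separate for Slc7a11, Phgdh and Atf5, and Atf4 has 1 siNC library at 85.5 CPM and 3 siEgr2 libraries at 86.0 to 102 CPM beneath the rest.

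The promoters of 4 of the 10 genes hold the letters of a C/EBP-ATF response element, TGATGNAA, on either strand between 250 bases before and 50 bases after a RefSeq start (all 10 have such a window). They are Trib3, Asns, Chac1 and Slc7a11, and the same letters occur in 308 of 11241 genes with such a window (2.74%). A match describes the sequence and is not a measured ATF4 site. The stretches below are shown because they separate Slc7a11, with a pair of matches on opposite strands, from the other 3 genes with 1 match each. They are from RefSeq on GRCm38.p6, 5′ to 3′ on the strand of the gene, with the element in capitals (TTGCATCA and TTACATCA are matches on the opposite strand). Slc7a11 is at chr3:50443627-50443705 (minus strand), Asns at chr6:7693210-7693258 (minus), Chac1 at chr2:119351023-119351082 (plus) and Trib3 at chr2:152344028-152344057 (minus).
Slc7a11: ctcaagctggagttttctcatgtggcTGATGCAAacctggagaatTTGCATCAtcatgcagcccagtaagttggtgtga
Asns: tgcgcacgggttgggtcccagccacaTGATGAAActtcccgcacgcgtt
Chac1: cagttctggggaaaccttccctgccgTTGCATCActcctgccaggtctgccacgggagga
Trib3: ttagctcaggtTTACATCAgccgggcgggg

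The first bases of the matches lie 66 and 47 bases before the start in Slc7a11, 23 before it in Asns, 193 before it in Chac1 and 15 after it in Trib3. The 4 genes with a match had log2 fold changes of -1.13, -0.093, -0.35 and -0.23 in that order of genes, so a match was shared by the gene with the lowest fitted change and by one of the least changed. The antioxidant response element letters TGACNNNGC, on either strand, were found in the promoters of Asns and Phgdh only among the 10, and in 16.7% of the 11241 genes. The EGR letters GCGNGGGCG were found in Atf5 only, and in 12.5% of the genes. The window of Slc7a11 held neither, which says only that these letters are not in this window.

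Atf4 (chr15:80255184-80257541, plus strand, GRCm38) is the factor itself. Its level was 85.5, 162 and 181 CPM at the lowest, median and highest siNC library and 86.0, 130 and 174 CPM in siEgr2. The groups overlapped over nearly their whole range, and the log2 fold change of -0.23 (SE 0.23, 95% interval -0.74 to 0.27) did not pass the test (adjusted p = 0.536). Leaving out siNC replicate 4 or siEgr2 replicate 3 moved it to -0.36 or -0.14, with no call. The libraries lay at a high and a low level that did not follow the groups. The low ones were siNC replicate 4 at 85.5 CPM and siEgr2 replicates 3, 6 and 4 at 86.0, 101 and 102 CPM, and the other 8 libraries had 156 to 181 CPM. These low values rest on 1037 or more reads per library. The highest siNC library was 2.12 times the lowest, a spread reached by 2.34% of the 4652 genes with a mean of at least 50 CPM in siNC, whose median was 1.16. In siEgr2 the spread of Atf4 was 2.03 times, reached by 2.49% of 4668 genes.

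Of the 10 genes, siNC replicate 4 was the lowest siNC library for Atf4 alone. Of its 4 lowest libraries, each of the 9 target genes had 1 or 2 among its own 4 lowest, as the heat map of levels by library shows. Slc36a1, a lysosomal amino acid and proton symporter named after its values were seen, was uneven as well, at 33.0 CPM in siNC replicate 4, where the remaining siNC libraries had 7.88 to 12.4 CPM, and in siEgr2 at 10.7 and 11.8 CPM in replicates 2 and 1 and 22.8 to 30.5 CPM in the rest. It did not mirror Atf4 throughout, since siEgr2 replicate 5, with Atf4 at its high level, had 29.5 CPM of Slc36a1. The 4 genes whose profile over the 12 libraries was most like that of Atf4, by root mean square difference of centred log2 CPM among 12249 genes, were A930007A09Rik (0.21), Retreg1 (0.22), Slc35a2 (0.23) and Memo1 (0.24), none of them called. These distances are wider than those of the nearest genes to Slc7a11 given below. No exon of Atf4 overlaps another gene in GENCODE M21, and none of its 50-base stretches, the read length, occurs in another annotated gene.

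**Figure D2:**
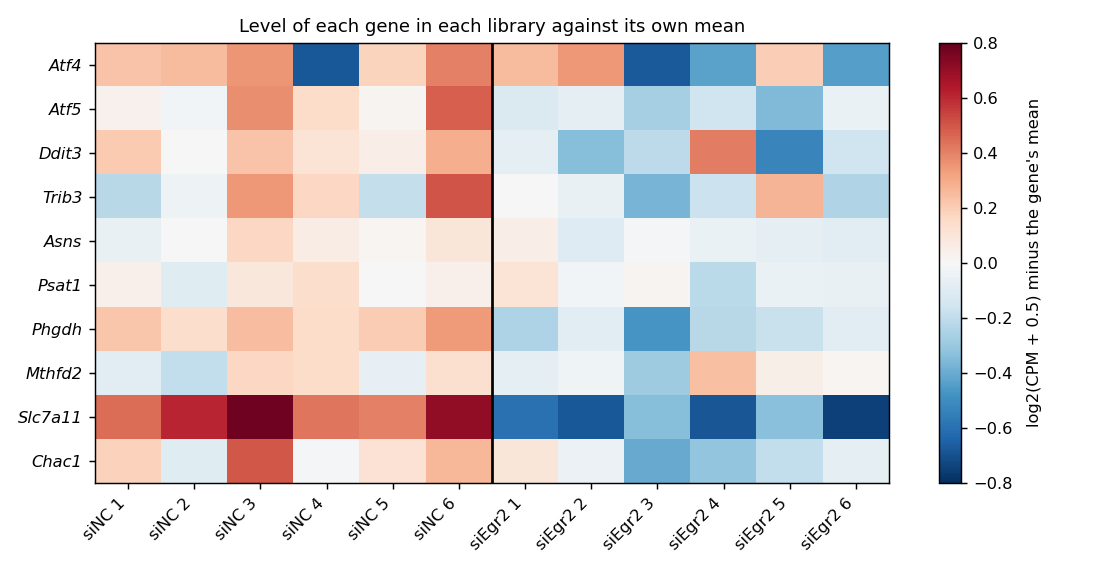
Heat map of the 10 genes (vertical) in the 12 libraries (horizontal, siNC left of the line), colored by log2(CPM + 0.5) minus the mean of the gene over the libraries. Blue in Atf4 falls on siNC 4 and siEgr2 3, 4 and 6, while in Slc7a11 it covers every siEgr2 library.

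Atf5 (chr7:44812256-44816658, minus strand) is a close relative of Atf4 that is translated under the same stress. It was measured at 87.1, 94.3 and 123 CPM in the lowest, median and highest siNC library and at 69.4, 80.6 and 85.5 CPM in siEgr2. The highest siEgr2 library was just beneath the lowest siNC library. Its log2 fold change was -0.35 (SE 0.086, edgeR quasi-likelihood adjusted p = 0.0090), short of the fold threshold. Its exons share 82 bases with Il4i1 and Nup62 on the other strand, and 1.81% of its 50-base stretches recur elsewhere, so a small part of its reads is uncertain.

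Ddit3, Trib3 and Chac1 are the feedback and cell death end of the pathway. Ddit3 (chr10:127290774-127296288, plus strand) encodes CHOP, a factor of prolonged stress. It had 11.3, 12.7 and 13.9 CPM in siNC and 7.68, 9.87 and 15.2 CPM in siEgr2. A single library, siEgr2 replicate 4, was above all siNC libraries and the remaining 5 were below all of them. The log2 fold change of -0.28 (SE 0.14, 95% interval -0.56 to 0.0092) did not pass (adjusted p = 0.171). Without siEgr2 replicate 4 it was -0.42 and passed the adjusted p (0.0116), short of the fold threshold. The exons of Ddit3 share 68 bases with Mars and 13 with Gm4189 on the other strand, and 1.11% of its 50-base stretches recur elsewhere. The strand setting is not given, so a part of its reads is uncertain. Trib3 (chr2:152337422-152344032, minus strand), a pseudokinase that restrains ATF4 and AKT, had 3.95, 4.94 and 6.87 CPM in siNC and 3.52, 4.29 and 5.76 CPM in siEgr2. The groups overlapped (log2 fold change -0.23, SE 0.17, adjusted p = 0.395). Chac1 (chr2:119351229-119354381, plus strand), which breaks down glutathione, had 4.70, 5.67 and 7.35 CPM in siNC and 3.71, 4.56 and 5.44 CPM in siEgr2. It was lower on average by -0.35 on the log2 scale (SE 0.15, 95% interval -0.66 to -0.036), its groups overlapped and its adjusted p was 0.113. The siEgr2 libraries held 40 to 70 reads of Trib3 and 34 to 81 of Chac1, and Chac1 had the same fitted change as Atf5 with a wider error.

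Of the 4 enzymes of amino acid and one-carbon synthesis, Phgdh alone passed the adjusted p. With scaling by library size only, Asns (-0.28, edgeR adjusted p = 0.000675) and Psat1 (-0.25, edgeR adjusted p = 0.00247) passed as well, short of the fold threshold. Psat1, Phgdh and Mthfd2 act in serine synthesis and in the mitochondrial folate path that uses serine carbon, and Asns makes asparagine. Asns (chr6:7675169-7693254, minus strand) had 64.1, 68.7 and 74.8 CPM in siNC and 62.3, 63.9 and 69.4 CPM in siEgr2. These ranges overlapped, and the log2 fold change was -0.093 (SE 0.049, 95% interval -0.20 to 0.011, adjusted p = 0.211). Psat1 (chr19:15904678-15947337, minus strand), the aminotransferase of serine synthesis, had 258, 284 and 304 CPM in siNC and 238, 269 and 298 CPM in siEgr2. Its log2 fold change was -0.070 (SE 0.051, 95% interval -0.18 to 0.038, adjusted p = 0.375). Mthfd2 (chr6:83305691-83325908, minus strand), the mitochondrial methylenetetrahydrofolate dehydrogenase, had 24.6, 29.0 and 31.8 CPM in siNC and 23.1, 28.1 and 33.5 CPM in siEgr2. The siEgr2 range enclosed the siNC range, at a log2 fold change of -0.032 (SE 0.091, 95% interval -0.23 to 0.16, adjusted p = 0.847). All 3 intervals exclude a change as large as the fold threshold of 0.5.

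Phgdh (chr3:98313170-98339990, minus strand), the first enzyme of serine synthesis from glycolysis, stood apart from Psat1, the next enzyme. It had 84.3, 88.3 and 96.9 CPM in siNC and 54.9, 66.4 and 71.8 CPM in siEgr2, with no overlap. The mean was 88.8 ± 4.68 CPM in siNC and 65.8 ± 6.21 CPM in siEgr2 (SD, n = 6 libraries each), and the log2 fold change was -0.43 (SE 0.063, 95% interval -0.57 to -0.30, edgeR quasi-likelihood adjusted p = 0.000119), short of the fold threshold. Its counts are uncertain in level, because 47.8% of its 50-base stretches also occur in 23 other annotated genes, most of them in Gm7901, and how the authors assigned such reads is not given in the sources used here. Phgdh is also known to be strong in astrocytes. The summed astrocyte markers were lower in the same libraries, as given below, while Psat1 was at -0.070 (SE 0.051). Whether the cell mix has a part in the lower Phgdh was not tested.

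Slc7a11 (chr3:49892526-50443614, minus strand) encodes xCT, the light chain of the antiporter that imports cystine for glutathione synthesis in exchange for glutamate. It had 181, 198 and 236 CPM in the lowest, median and highest siNC library and 81.4, 88.1 and 109 CPM in siEgr2. The highest siEgr2 library was well beneath the lowest siNC library. The mean was 204 ± 23.0 CPM in siNC and 93.2 ± 12.1 CPM in siEgr2 (SD, n = 6 libraries each), 2.19-fold lower, and the log2 fold change was -1.13 (SE 0.090, 95% interval -1.32 to -0.94, adjusted p = 8.99e-07). The reads behind it numbered 5547 to 9367 in a library of siNC and 835 to 1750 in one of siEgr2. Without any 1 library it stayed called, and over 22 other settings its log2 fold change ranged from -1.31 to -1.08. The 4 genes most like it in profile were Cp (root mean square difference 0.13), Rnd1 (0.15), Thbs2 (0.17) and Timp1 (0.17). They were picked for a profile that includes the group difference, so their calls, at log2 fold changes of -1.20, -1.04, -0.996 and -1.17, follow from that choice.

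**Figure D3:**
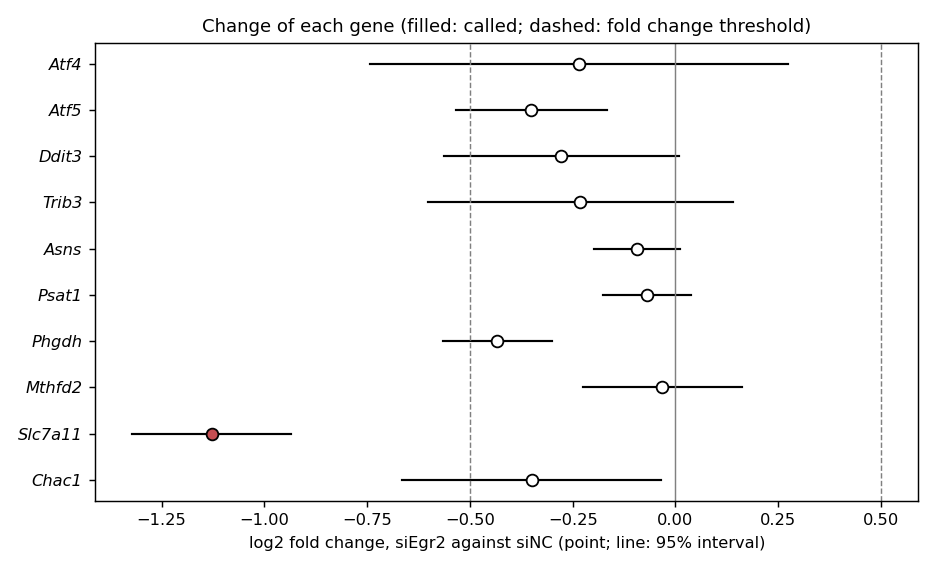
Log2 fold change of siEgr2 against siNC for the 10 genes (point) with its 95% interval (line) from edgeR's quasi-likelihood fit. The filled point, Slc7a11 at -1.13, is the only call, and the dashed lines mark the fold threshold of 0.5 in either direction.

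Per kilobase of exon, the order in siNC was Psat1 (66.6 CPM per kb), Atf4 (65.2), Atf5 (50.5), Phgdh (35.7), Asns (25.3), Slc7a11 (14.6), Mthfd2 (8.24), Ddit3 (7.36), Chac1 (3.52) and Trib3 (2.42). The length merges the exons of all annotated transcripts of a gene, whether used in these cells or not, and the order depends on it. The level of Phgdh also carries the uncertainty of its shared stretches. Psat1 and Atf4 lay above 96.2% and 96.1% of 15862 tested genes with a length, and Trib3 above 33.4%. The ranges over the siNC libraries overlapped for Psat1 and Atf4, for Atf4 and Atf5, for Mthfd2 and Ddit3 and for Chac1 and Trib3. These neighbours were measured in the same libraries and were not compared library by library. The overlap therefore does not show that their levels are alike. In siEgr2 the mean of Slc7a11 was 6.70 CPM per kb, beneath the mean of Mthfd2 at 8.07, and their libraries overlapped.

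The wider pathway was read in lists of genes. Of 37 tested eIF2 kinases, phosphatase subunits and partners of ATF4, 3 were called lower and 0 higher, with a median log2 fold change of -0.03. The called genes were Nupr1, a stress-induced chromatin protein (-0.75, SE 0.17, adjusted p = 0.00450), Cebpd, a C/EBP family factor (-0.71, SE 0.076, adjusted p = 6.03e-06), and Nfe2l2, which encodes NRF2, the main activator of antioxidant genes (-0.62, SE 0.064, adjusted p = 3.72e-06). Nfe2l2 had 80.3, 93.7 and 99.5 CPM in siNC and 52.1, 60.5 and 65.7 CPM in siEgr2 and did not overlap. Without siEgr2 replicate 6 the count called lower was 5. By adjusted p alone 3 genes were higher, where 8.57% of all tested genes were, and 5 lower, where 11.3% were, and 5.08% of all genes were called lower. Among genes named after their values were seen, Trib2 (0.42) and Ddit4 (0.28), an inhibitor of mTORC1 that ATF4 raises, were higher by adjusted p, with every siEgr2 library above every siNC library (0.24 and 0.10 when scaled by library size only, where Ddit4 did not pass), while Ppp1r15a (-0.38), the phosphatase subunit that reverses eIF2 phosphorylation, and Atf3 (-0.49) were lower by adjusted p with overlapping groups. Eif2ak3, which encodes PERK, the kinase of endoplasmic reticulum stress, was at -0.027 (SE 0.050, adjusted p = 0.762).

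Among 20 cytosolic aminoacyl-tRNA synthetases, a large class of ATF4 target genes, none was called by edgeR, with a median log2 fold change of 0.01. Only Farsa, named after its values were seen, passed the adjusted p (0.33, SE 0.070, adjusted p = 0.00278), and with scaling by library size only it did not (0.15, adjusted p = 0.122). The most abundant members, Aars and Eprs, were at 0.0088 (SE 0.041) and -0.063 (SE 0.039). At an unadjusted p under 0.05, 4 of the 20 were higher and 0 lower, beside 15.1% and 16.9% of all tested genes, and DESeq2 and limma-voom called 0.

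Of 24 tested amino acid transporters, 1 was called lower and 0 higher, and the median was -0.11. The call was Slc7a2, a carrier of cationic amino acids, with 56.1, 61.6 and 125 CPM in siNC and 33.7, 35.5 and 43.0 CPM in siEgr2 (log2 fold change -0.97, SE 0.20, adjusted p = 0.00421). Over all tested genes 5.08% were called lower. By adjusted p alone 8 transporters were lower and 1 higher, beside 11.3% and 8.57% of all tested genes. The higher one, named after its values were seen, was Slc38a2, a carrier of small neutral amino acids, with a mean of 336 ± 10.6 CPM in siNC and 372 ± 8.70 CPM in siEgr2 (SD, n = 6 libraries each; log2 fold change 0.15, SE 0.031, edgeR quasi-likelihood adjusted p = 0.00236). The 2 groups did not overlap, and with scaling by library size only the sign turned (-0.033, adjusted p = 0.523). The count called lower was 2 without siNC replicate 4 or siEgr2 replicate 1 and 3 without siEgr2 replicate 2, and without siNC replicate 4 it was 1 for transporters called higher. With all libraries the count called lower was 7 when scaled by library size only, 4 with no filter beyond 1 count and 2 with limma-voom or after thinning. Slc3a2, the heavy chain that brings xCT to the cell surface and is named here after its values were seen, had 191, 205 and 250 CPM in siNC and 162, 168 and 178 CPM in siEgr2. It was lower without overlap (-0.36, SE 0.066, adjusted p = 0.000863), short of the fold threshold. The carriers Slc7a5 (-0.43), Slc1a5 (-0.46) and Slc6a9 (-0.47) lay on the same side of 0 without overlap.

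Of 33 other enzymes of serine, glycine, proline, transsulfuration and folate metabolism, 3 were called lower, Aldh1l1 (-0.74, SE 0.064), Glul (-0.61, SE 0.036) and Cbs (-0.60, SE 0.11), and the median was -0.01. Beside them, 5.08% of all tested genes were called lower. By adjusted p alone 5 of the 33 were lower and 2 higher (11.3% and 8.57% of all tested genes), and at an unadjusted p under 0.05, 9 were lower and 6 higher (16.9% and 15.1%). Aldh1l1, a folate enzyme, is itself one of the astrocyte markers, and Glul, glutamine synthetase, is abundant in astrocytes. Cbs commits homocysteine to cysteine synthesis. Shmt2, which feeds Mthfd2 in the mitochondrion, and Psph, the enzyme after Psat1, were at 0.043 (SE 0.063) and 0.075 (SE 0.076) and were named after their values were seen. Of 14 mitochondrial stress proteins none was called by edgeR, DESeq2 or limma-voom, 4 were lower at an unadjusted p under 0.05 (16.9% of all tested genes were), 2 by adjusted p alone, and the median was -0.03. The abundant Hspa9 and Hspd1, both mitochondrial chaperones, were at -0.20 (SE 0.042, adjusted p = 0.00238) and -0.0058 (SE 0.043). Of 35 chaperones and genes of the ATF6 and XBP1 arms of the unfolded protein response, 1 was called lower, Crebl2 (-0.51, SE 0.13, adjusted p = 0.0113), and the call was lost without siNC replicate 2, siNC replicate 5 or siEgr2 replicate 1. The median was -0.11, and 11 of the 35 were lower by adjusted p alone, where 11.3% of all tested genes were, and 5.08% were called lower.

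**Figure D4:**
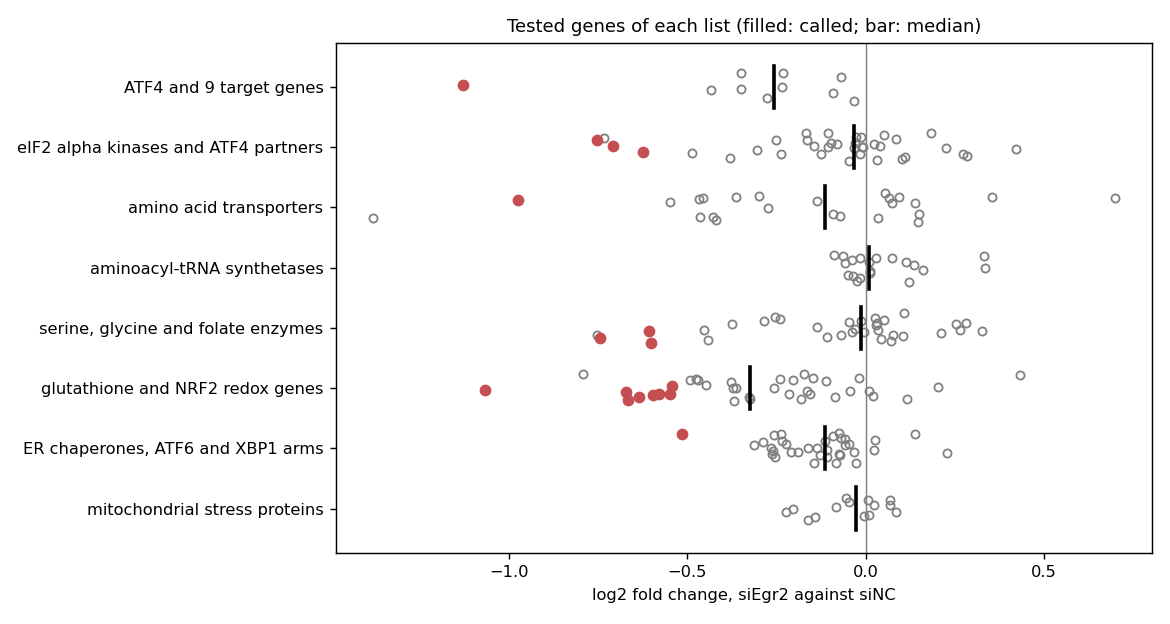
Log2 fold change of siEgr2 against siNC (horizontal) for each tested gene of 8 lists (vertical), filled where called, with the median of the list as a bar. The tRNA synthetases center at 0.01, and the glutathione and NRF2 list at -0.32 with 8 calls, all below 0.

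Among the pathway lists, that of glutathione and NRF2 redox genes had the most calls lower. The lists of cell type markers, given below, are left out of this ranking. NRF2, like ATF4, is known to raise xCT, and the cystine that xCT imports goes into glutathione. Of the 37 tested genes of this list 8 were called lower and 0 higher, 24 were lower by adjusted p alone, 32 were below 0 and in 15 every siEgr2 library lay below every siNC library, with a median log2 fold change of -0.32. By adjusted p alone 1 was higher (8.57% of all tested genes were), Trp53inp1, named after its values were seen (0.43, SE 0.082, edgeR adjusted p = 0.00155). Every siEgr2 library of Trp53inp1 lay above every siNC library. Over all tested genes 5.08% were called lower, 11.3% were lower by adjusted p alone, 49.1% were below 0 and 7.00% had every siEgr2 library beneath the siNC libraries. The called genes with the lowest fold changes were Osgin1, an oxidative stress induced growth inhibitor (-1.07, SE 0.17, adjusted p = 0.000347), Srxn1, which repairs peroxiredoxins (-0.67, SE 0.061, adjusted p = 1.20e-06), Gsta4, a glutathione transferase (-0.66, SE 0.11), and Aifm2, which encodes the ferroptosis suppressor FSP1 (-0.63, SE 0.16). Srxn1 had 97.4, 105 and 109 CPM in siNC and 54.9, 66.4 and 73.4 CPM in siEgr2. The other calls were Me1 (-0.60), Nqo1 (-0.58), Hmox1 (-0.55) and Gpx8 (-0.54), where Nqo1 and Aifm2 had overlapping groups. Of the 2 subunits of the enzyme that uses cysteine for glutathione, named after their values were seen, the catalytic Gclc had 96.5, 98.3 and 113 CPM in siNC and 67.4, 72.5 and 77.7 CPM in siEgr2 (-0.48, SE 0.051, adjusted p = 6.52e-06). The modifier Gclm did not pass (-0.26, SE 0.23, adjusted p = 0.496). Its siNC replicate 1 stood at 34.0 CPM while the remaining siNC libraries spanned 96.8 to 111 CPM, and siEgr2 had 72.7 to 79.2 CPM. Gpx1 was uneven as well, with siNC replicates 2 and 5 at 19.9 and 29.0 CPM and the other siNC libraries at 206 to 248 CPM. In siEgr2 replicate 4 had 151 CPM and the other libraries 74.4 to 82.5 CPM, between the levels of siNC, and its log2 fold change of -0.79 (SE 0.60) did not pass (adjusted p = 0.406).

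Markers of other cells differed between the groups beside these genes. The 10 astrocyte markers summed to 8174 to 8877 CPM in siNC and 5202 to 5909 CPM in siEgr2, 5 of 10 were called lower (5.08% of all tested genes were), in 8 of 10 every siEgr2 library was beneath the siNC libraries (7.00% of all tested genes), and their median log2 fold change was -0.58. Gfap, the astrocyte intermediate filament, was at -0.56 (SE 0.035) and Slc1a3, a glutamate carrier, at -0.85 (SE 0.037). The 10 mature OL markers summed to 7283 to 8308 CPM in siNC and 6841 to 7122 CPM in siEgr2, with none called by edgeR, DESeq2 or limma-voom, 6 lower at an unadjusted p under 0.05 (16.9% of all tested genes were), 3 by adjusted p alone (11.3% of all tested genes were) and a median of -0.14. Of these 3, Mbp was lower without overlap (-0.28, SE 0.043, adjusted p = 0.000228). The 8 precursor and premyelinating markers summed to 5385 to 6021 CPM in siNC and 5861 to 7138 CPM in siEgr2, with Pdgfra (0.56) and Cspg4 (0.56) called higher (2.63% of all tested genes were) and a median of 0.36. With scaling by library size only these 2 were at 0.37 and 0.38 and were not called. In the same list Enpp6 was lower by adjusted p (-0.22, SE 0.072, adjusted p = 0.0483) and Tnr was at -0.060 (SE 0.044). The abundant Bcas1, part of the sum, was not called (0.34, SE 0.14, edgeR adjusted p = 0.130) and was uneven in siEgr2. Its replicates 1, 5 and 6 had 2065 to 2182 CPM and replicates 2, 3 and 4 had 1318 to 1431 CPM, against 1292 to 1418 CPM in siNC. Microglia markers were near 0 in sum, at 25.2 to 31.1 CPM in siNC and 21.6 to 32.2 CPM in siEgr2, and Aif1 and Itgam had 0 counts in every library. Neuron markers summed to 141 to 160 CPM and 122 to 134 CPM with 1 called lower, Stmn2 (-0.91), and 5 of 8 below 0. Tubb3, the most abundant, was lower by adjusted p without overlap (-0.27, SE 0.049, adjusted p = 0.000812), Syt1 was higher by adjusted p (0.31, SE 0.092, adjusted p = 0.0266), and Rbfox3 and Snap25 were at 0.41 and 0.40 without passing. Endothelial, pericyte and fibroblast markers summed to 596 to 1011 CPM and 598 to 747 CPM. Of 8 tested, 3 were called lower (5.08% of all tested genes were), Flt1 (-1.35), Rgs5 (-0.78) and Pdgfrb (-0.56). Of these 8 genes 7 were below 0, with a median of -0.36. The most abundant, Col1a1 (-0.16) and Col1a2 (-0.27), were not called, and Cldn5 had 0 counts throughout.

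Slc7a11, Phgdh, Psat1 and the redox gene Nqo1 were also set against the summed astrocyte markers. That sum was itself lower in siEgr2 (5202 to 5909 CPM against 8174 to 8877 in siNC). Dividing by it raises every gene in siEgr2 against siNC. The differences between the 4 genes on this scale therefore restate their fitted changes and do not show which cells they came from. The sum is weighted by its abundant members, Gfap above all, and the single markers ranged from -0.85 (Slc1a3) to -0.11 (Fgfr3) in log2 fold change, so the ratios depend on that weighting. Slc7a11 had 20.4, 23.5 and 28.1 CPM per 1000 CPM of astrocyte markers in siNC and 13.8, 15.5 and 20.8 in siEgr2, and the log2 ratio of the medians was -0.60, against -1.13 for the fitted change. The ranges overlapped narrowly. Phgdh had 9.77, 10.2 and 11.4 in siNC and 10.5, 11.8 and 12.4 in siEgr2, with a log2 ratio of the medians of 0.22, against -0.43 for the fitted change. Psat1 had 31.0, 32.7 and 35.2 in siNC and 41.9, 47.4 and 53.8 in siEgr2. Nqo1, called lower at -0.58 in CPM, had 1.16, 1.41 and 1.68 in siNC and 0.877, 1.48 and 1.96 in siEgr2, with overlapping groups and a log2 ratio of the medians of 0.069. Which cells the reads of these genes came from was not tested.

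**Figure D5:**
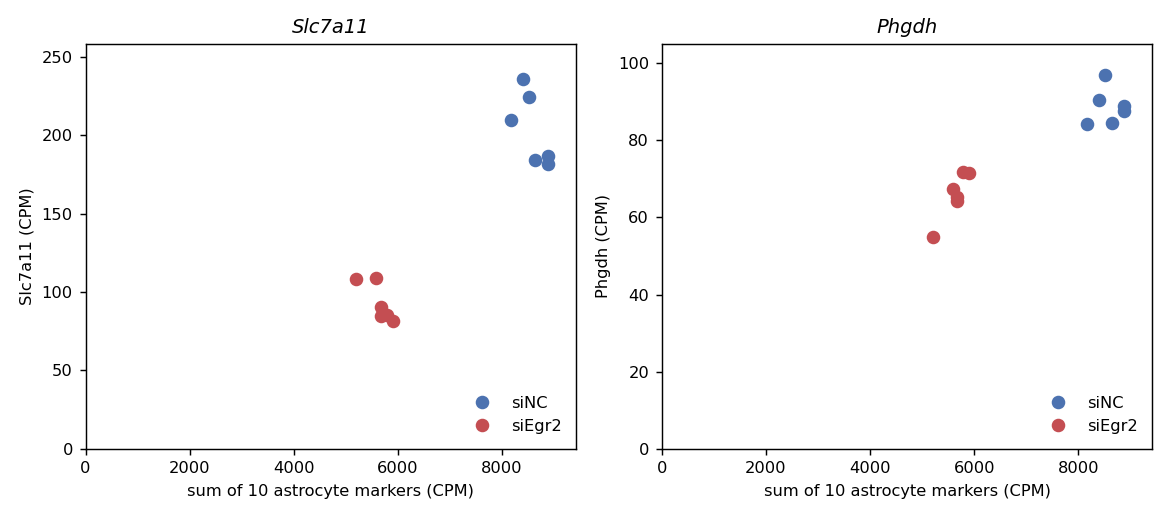
Level of Slc7a11 (left) and Phgdh (right) in CPM (vertical, from 0) against the summed level of 10 astrocyte markers in CPM (horizontal, from 0), with 1 point per library. The siNC libraries lie at 8174 to 8877 CPM of markers and the siEgr2 libraries at 5202 to 5909 CPM, apart on both axes.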

How the data were processed

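The authors deposited raw read counts per gene for 12 libraries, made from 50 base Illumina reads. The labels name the genome build mm10, and the aligner, counting program and strand setting are not given in the sources used here. Libraries were grouped by their titles. No pair of libraries was a copy (chi-square per gene 7.2 to 42 over 30 within-group pairs). In R 4.3.3 with edgeR 4.0.16, low genes were dropped with filterByExpr, TMM factors were applied, and the groups were compared by the robust quasi-likelihood test, with Benjamini-Hochberg adjustment over 16600 genes. Intervals are 95% t intervals of the fit. The 10 genes, the lists and the rule for named genes (the called genes with the largest change in a list, up to 4, otherwise its 2 most abundant, and the 4 profiles most like Atf4 and Slc7a11) were chosen with earlier results of these data known. Genes outside this rule were named after their values were seen. Coordinates are from GENCODE M21 (GRCm38). Tested on simulated data, the procedure recovered 155 of 196 genes changed 2-fold (79.1%), with 6 wrong among 161 calls. Alternatives comprised other scalings, filters and thresholds, DESeq2 1.42.0, limma-voom (limma 3.58.1), a replicate block, thinning to 8034251 counts, 2768 structural RNA genes left out, and each library left out. Replicate numbers did not pair the libraries.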

Additional observations from a re-analysis of the deposited data

Results flagged for a closer look

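Among 26 groups of 6 libraries examined for a library far from the others, chance gives about 1.3, and 2 were found. Atf4 in siNC replicate 4 was 85.5 CPM, where the nearest siNC library had 156 CPM, so the gap took up 0.732 of the range of the group. The total count of siNC replicate 6 was 39383014, where the nearest siNC library had 32460116 (0.647 of the range).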

How the results depend on the processing

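Slc7a11 was called lower under every alternative run. The count of the 10 genes called lower was 1 and became 4 with scaling by library size only (Atf5, Chac1 and Phgdh were added, at -0.53, -0.53 and -0.62) and 3 with no fold threshold, and it stayed at 1 under the others. The count of the 10 genes that passed the adjusted p was 3, and became 7 with library size only and 4 without siEgr2 replicate 4. Over all genes, 1281 were called, against 1974 with library size only, 3300 with no fold threshold, 373 with a log2 fold change over 1 and 1114 to 1339 with 1 library left out. Library size only moved the median of all genes to -0.18, and 88.0% of its calls were lower against 65.9%. Egr2 was called with this scaling only (-0.70), and stood at -0.23 after thinning. Mthfd2 was above 0 when libraries were thinned to the smallest total (0.10), and without 1 library it ranged from -0.093 to 0.017, above 0 without siNC replicate 3 (0.00027) or siEgr2 replicate 3. Its interval includes 0 and the cause was not tested. With a replicate block 1124 genes were called, of the 10 genes again 1, and correlations of same-numbered libraries lay between -0.013 and 0.056. Of 624 counts of calls in the lists, 581 stayed within 1.5 times. With library size only, the counts called lower became 6 for the eIF2 list, 7 for transporters, 7 for the serine and folate list, 17 for the redox list and 8 for astrocyte markers. Ddit3 passed the adjusted p without siEgr2 replicate 4 (-0.42). How far the lower depth of siEgr2 limits each gene was not tested.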
